A study of Mus musculus with 8 samples.

Results

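The genes described here encode the proteasome and its partners: the 51 protein-coding genes, of 21887 in the RefSeq annotation of GRCm38 (mm10), whose symbols begin with Psma, Psmb, Psmc, Psmd, Psme, Psmf or Psmg. They were examined in 8 lists of peaks of H3K9ac, the acetylation of histone H3 on lysine 9 found at active promoters, obtained by chromatin immunoprecipitation and sequencing from mouse cerebellum. Knock-in mice were C57BL/6 heterozygotes labelled 266Q, that is with 266 glutamines in ataxin-7, the protein expanded in spinocerebellar ataxia type 7, and the series calls them symptomatic. Controls were wild type littermates of the same strain, and all mice were 9 weeks old. Each genotype had 4 libraries, and the labels do not say whether a library came from 1 animal or a pool, nor whether replicates were separate animals. As a knock-in, the expansion sits in Atxn7 itself and is not limited by cell type, and whole cerebellum mixes many cell types. A gene was counted as having a peak in a library if a listed peak overlapped the 1 kb on either side of either end of the gene. A listed peak passed the peak caller's minimum score, so a gene without one was below that minimum and was not shown to lack the mark.

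The proteasome degrades proteins tagged with ubiquitin. Its core particle is a barrel of alpha rings, which gate the entrance, and beta rings, which hold the proteolytic sites. A regulatory particle of ATPases and non-ATPase subunits sits on the core, binds ubiquitin chains, removes them and unfolds the substrate. Cells exposed to interferon gamma replace the catalytic beta subunits by the inducible subunits of the immunoproteasome, and other caps (the activators) open the core without ubiquitin. Polyglutamine proteins, ataxin-7 among them, collect in nuclear inclusions that stain for ubiquitin and proteasome subunits, which is why this family is of interest in such mice. By role the 51 genes were 7 core alpha and 7 core beta subunits, 3 immunoproteasome beta subunits, 2 core subunits restricted to testis or thymus, 6 regulatory ATPases, 11 regulatory non-ATPases, 7 assembly chaperones, 5 activators and 1 inhibitor. The remaining 2, Psmc3ip and Psme3ip1, encode proteins named for binding a proteasome protein and are not subunits.

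The lists were of very unequal length in both genotypes. Replicates 1 and 2 held 7735 to 11409 peaks with median widths of 1065 to 1246 bp, and replicates 3 and 4 held 1266 to 5571 peaks with median widths of 132 to 148 bp. The sources used here do not give read depth. Replicates 1 and 2 are called the long lists and replicates 3 and 4 the short lists below. Of 10 granule cell markers, 9 or 10 had a peak in each long list, against 2 to 5 of 10 Purkinje cell markers. Of 8 astrocyte and Bergmann glia markers 1 had a peak in each long list, of 8 oligodendrocyte markers 0 to 2, and of 6 vascular markers none. Of 12 microglia and immune cell markers none had a peak in any of the 8 libraries.

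The promoter windows of 6 members are shown because they span the range of the findings: Psma7 and Psma4 were in 6 and 5 libraries (Psmd11, not shown, was also in 5), Psmb10, Psmb8 and Psmb9 are the immunoproteasome genes, and Psma2 is an essential core subunit without a listed peak. Each is the 250 bases upstream of a RefSeq start site (build GRCm38.p6), read 5′ to 3′ on the strand of the gene. Capitals mark a match to any of 6 motifs described after the sequences.
Psma7, chr2:180042465-180042714, strand -: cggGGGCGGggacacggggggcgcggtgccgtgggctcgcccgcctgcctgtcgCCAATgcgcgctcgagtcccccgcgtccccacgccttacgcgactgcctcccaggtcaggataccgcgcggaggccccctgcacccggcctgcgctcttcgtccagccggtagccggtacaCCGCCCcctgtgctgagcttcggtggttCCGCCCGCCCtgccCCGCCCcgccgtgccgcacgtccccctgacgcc
Psma4, chr9:54950609-54950858, strand +: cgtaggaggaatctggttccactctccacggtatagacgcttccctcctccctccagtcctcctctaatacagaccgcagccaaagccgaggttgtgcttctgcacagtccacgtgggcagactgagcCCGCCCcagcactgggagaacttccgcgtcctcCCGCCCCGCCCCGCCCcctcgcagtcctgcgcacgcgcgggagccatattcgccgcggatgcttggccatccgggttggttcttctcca
Psmb10, chr8:105938393-105938642, strand -: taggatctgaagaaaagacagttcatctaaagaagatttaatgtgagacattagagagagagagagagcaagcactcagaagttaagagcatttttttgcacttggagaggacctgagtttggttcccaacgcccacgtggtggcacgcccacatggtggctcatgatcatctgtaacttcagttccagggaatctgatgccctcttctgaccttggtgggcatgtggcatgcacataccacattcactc
Psmb8, chr17:34197945-34198194, strand +: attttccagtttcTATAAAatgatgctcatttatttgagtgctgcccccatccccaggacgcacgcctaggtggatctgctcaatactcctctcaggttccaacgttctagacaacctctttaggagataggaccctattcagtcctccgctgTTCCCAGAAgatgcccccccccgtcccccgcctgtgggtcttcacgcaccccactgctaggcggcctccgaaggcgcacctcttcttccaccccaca
Psmb9, chr17:34187331-34187580, strand -: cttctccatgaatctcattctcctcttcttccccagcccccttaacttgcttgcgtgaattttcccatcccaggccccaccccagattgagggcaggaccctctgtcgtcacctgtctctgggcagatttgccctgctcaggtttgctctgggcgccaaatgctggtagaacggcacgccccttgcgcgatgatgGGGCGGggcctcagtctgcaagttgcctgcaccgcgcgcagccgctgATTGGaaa
Psma2, chr13:14612992-14613241, strand +: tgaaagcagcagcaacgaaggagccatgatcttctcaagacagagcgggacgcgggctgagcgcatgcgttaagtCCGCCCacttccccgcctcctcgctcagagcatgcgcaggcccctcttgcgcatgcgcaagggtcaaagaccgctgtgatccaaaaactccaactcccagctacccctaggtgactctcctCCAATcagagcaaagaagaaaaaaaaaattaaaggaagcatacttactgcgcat

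The 6 motifs were searched on both strands in 47 windows of 43 members and in 21263 windows of protein-coding genes. The RefSeq start table held no entry for Psma8, Psmb1, Psmb2, Psmb7, Psmc3, Psmd3, Psmd7 and Psmg2. The GC box (GGGCGG, bound by Sp1) was in 24 of the 47 windows, or 51.1%, against 42.6% of all windows. The CCAAT box (CCAAT, bound by NF-Y) was in 16 of the 47 windows and in 35.4% of all windows. The core of the antioxidant response element (TGACNNNGC), the type of element through which Nfe2l1 acts on proteasome genes, was in 5 windows, those of Psmb5, Psmb6, Psmc6, Psmd9 and Psmd12, or 10.6% against 10.4%. The TATA box (TATAAA) was in 8.51% against 11.6%. For interferon signalling, the core of the interferon-stimulated response element (TTTC, any 2 bases, TTTC) was in 3 windows, or 6.38% against 2.96%. Those were the windows of Psmb3, Psmd4 and Psmd9, none of them an interferon-inducible subunit named above. The gamma-activated site (TTCNNNGAA) was in 2 windows, those of Psmb8 and Psmg1, or 4.26% against 6.58%. Among the sequences shown, Psma7 and Psma4 had several GC boxes that partly overlap one another, Psmb8 held a gamma-activated site whose first base is at -97 from the start, and Psmb10 held none of the 6 motifs. Median CpG counts were 14 per window for members and 10 for all windows, and the Psma7 window had 35, the most of any member, while that of Psmb10 had 3. By detection, the median CpG count was 15 for members with peaks in 3 or more libraries, 15 for those in 1 or 2 and 11.5 for those in none.

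Most proteasome genes carried a peak in at least 1 library, but few carried one in many. Of the 51, 39 (76.5%) had a peak in at least 1 library, against 45% of all protein-coding genes. In 6 or more libraries there was 1 member, Psma7, or 1.96% against 4.42% of all genes, and no member was in 7 or 8. All 4 long lists held 11 members (21.6%, against 22.9% of all genes), and 12 members had no peak in any list.

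Far more members had a peak in the long lists than in the short ones. In knock-in libraries 1 to 4 it was 32, 25, 5 and 0, that is 62.7%, 49.0%, 9.80% and 0% of members. All genes gave 39.1%, 36.2%, 10.4% and 0.896% in the same lists. In wild type libraries 1 to 4 it was 19, 18, 2 and 0, that is 37.3%, 35.3%, 3.92% and 0%, beside 31.9%, 27.8%, 5.43% and 1.46% of all genes. Members thus stood above the share of all genes in each long list, by the most in knock-in replicate 1. In the short lists they were near that share, and counts of 5, 0, 2 and 0 are too small to tell a lower one. The 89 ribosomal protein genes, taken by symbol, stood at 65.2% and 59.6% in the long knock-in lists and 48.3% and 28.1% in the long wild type lists, and the 28 RNA polymerase subunit genes at 57.1% and 57.1% and at 60.7% and 35.7%.

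**Figure D1:**
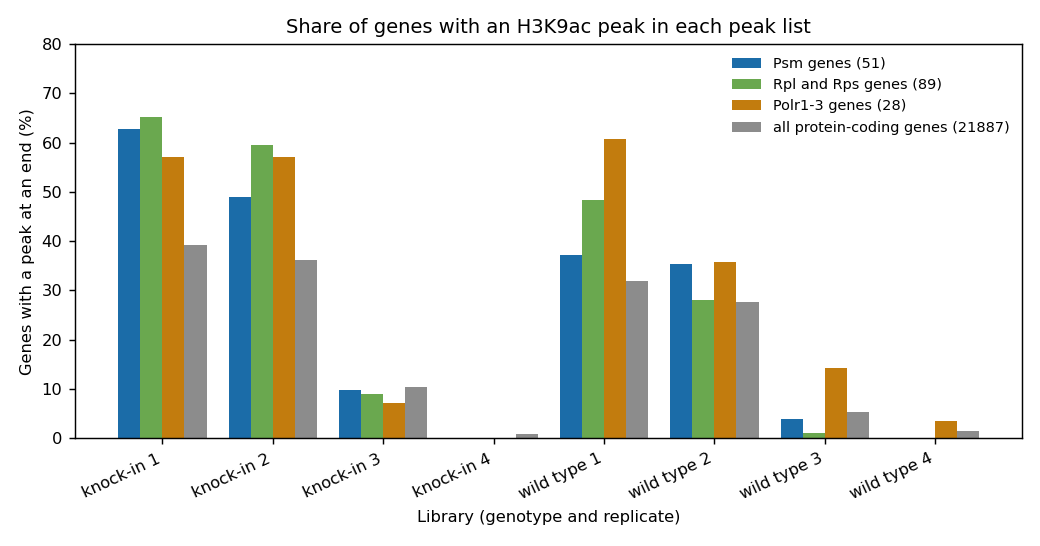
Share of genes with an H3K9ac peak at an end (y axis, percent) in each of the 8 peak lists (x axis, genotype and replicate), for the 51 proteasome genes, 89 ribosomal protein genes, 28 RNA polymerase subunit genes and all 21887 protein-coding genes. The blue bars of the proteasome genes rise above the grey bars of all genes in replicates 1 and 2 and not in replicates 3 and 4.

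Peaks at proteasome genes ranked below the typical peak at a gene end. The rank is given as a score percentile, the percentage of peaks in the same list with a lower score of the authors' peak caller, and where a gene had several peaks the widest was taken. The median percentile of member peaks was 37.4, 53.2, 35.5 and 33.5 in knock-in 1, knock-in 2, wild type 1 and wild type 2. All peaks at gene ends in these lists, each counted once and not only the widest per gene, had medians of 56.4, 60.9, 64.8 and 56.5. Median widths of member peaks were 1088, 1077, 1055 and 999.5 bp, against 1304, 1268, 1278 and 1105 bp for all peaks at gene ends. Member peaks were thus lower in rank and narrower than the typical peak at a gene end in each of the 4 long lists.

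**Figure D2:**
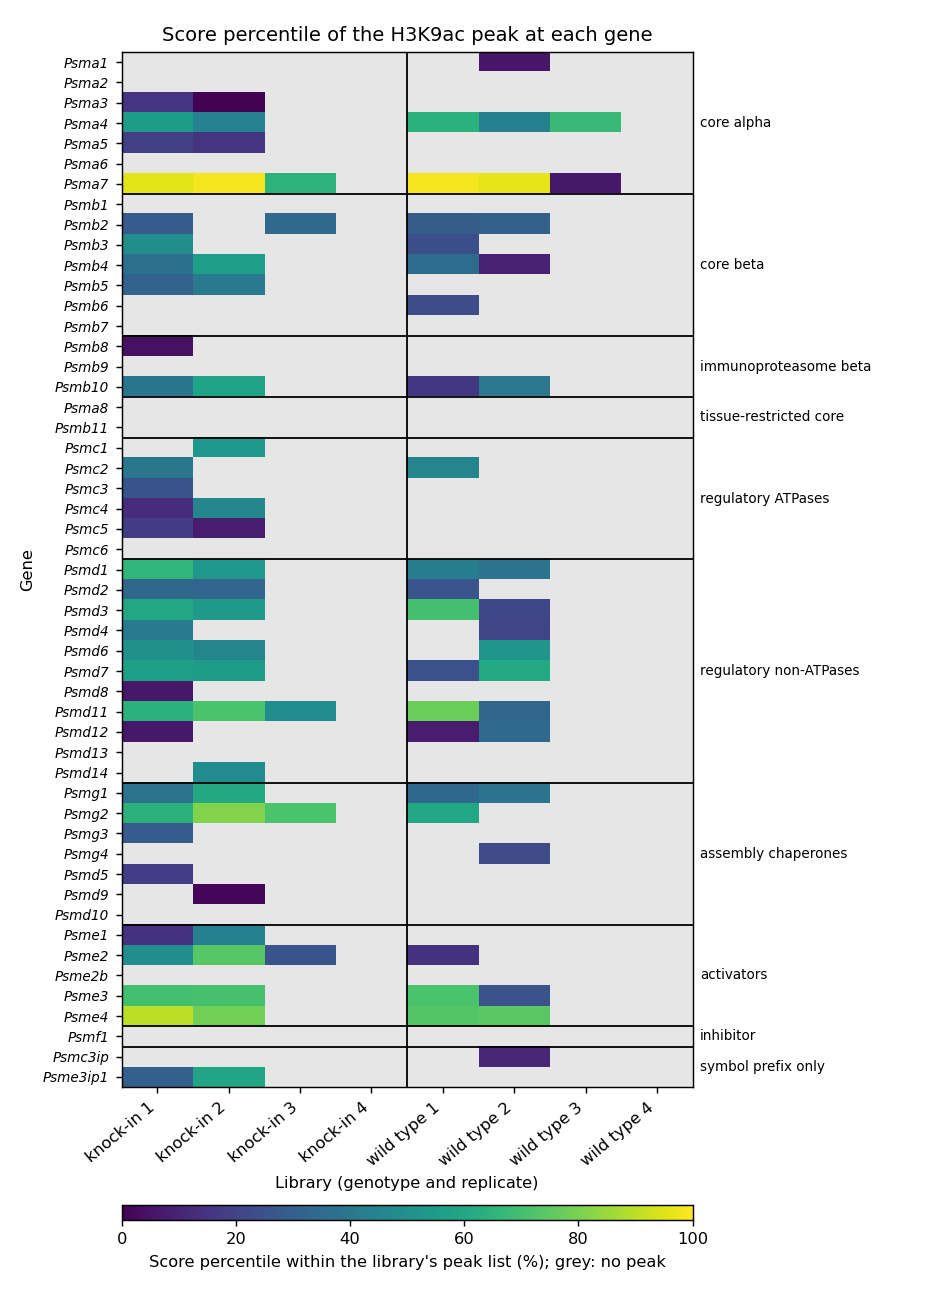
Score percentile (colour, percent of the list's peaks with a lower score) of the widest peak at each of the 51 genes (rows, grouped by role) in each of the 8 libraries (columns), with grey for no listed peak. Psma7 is the 1 gene in 6 libraries, knock-in 4 and wild type 4 are empty, and Psmb9 is grey throughout.

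Among the core alpha subunits, Psma7 stood apart and its neighbours in the ring ranged from moderate peaks to none. Psma7 (chromosome 2, 180036367 to 180042464, minus strand) had peaks of 2198 and 2200 bp in knock-in 1 and 2 and of 1930 and 2284 bp in wild type 1 and 2, at percentiles 96.0, 98.7, 98.7 and 96.4. Its peaks in the short lists were 199 bp in knock-in 3 (percentile 64.7) and 154 bp in wild type 3 (6.34). The 4 long lists overlap between genotypes, and of the 11 members in all of them it had the widest and highest ranked peak. The peaks reached about as far upstream as downstream of its start and into the end window of Ss18l1, which encodes a neuronal chromatin remodelling subunit, so the mark cannot be assigned to Psma7 alone. In knock-in 3 the short peak lay at -636 to -438 bp from the start, on the side of Ss18l1, and in wild type 3 it lay 320 to 473 bp downstream.

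Psma4 (chromosome 9, 54950781 to 54958034) was the other alpha subunit in all long lists, with widths of 1215, 947, 1020 and 1035 bp at percentiles 55.4, 44.2, 63.9 and 44.1 in knock-in 1 and 2 and wild type 1 and 2, and a peak of 139 bp in wild type 3. The windows of Hykk and AY074887 also overlapped a peak of Psma4. Psma5 had peaks of 865 and 710 bp in the long knock-in lists, at percentiles 18.8 and 15.1, and none in wild type. Psma1 had a single peak in wild type 2, at percentile 6.01. Psma2 and Psma6 had no peak at their ends in any library, although both are part of every proteasome core.

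Psma3 and Psma6 show how the choice of window matters. By the gene ends, Psma3 (chromosome 12, 70969283 to 70995877) had a peak in the 2 long knock-in lists and in no wild type list. Those peaks lay at -1036 to -209 bp and -1243 to -501 bp from the outermost annotated end, at percentiles 15.2 and 0.462. The start site in the RefSeq table, 5340 bp inside the gene at 70974623, carried peaks of 1346 and 2086 bp in knock-in 1 and 2 and of 2044 and 1086 bp in wild type 1 and 2, at percentiles 68.6, 65.2, 56.7 and 78.2. Knock-in 3 also had a peak of 170 bp there. At its internal start Psma3 was therefore found in both genotypes. Psma6 had a peak of 1009 bp at its internal start (55398825) in wild type 1, at percentile 17.4.

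Of the core beta subunits, Psmb4 was found in all long lists. Psmb4 (chromosome 3, 94884324 to 94886958) had widths of 1280 and 1287 bp in knock-in 1 and 2 and of 847 and 748 bp in wild type 1 and 2. Its percentiles were 36.7, 55.6, 35.5 and 9.19 in the same order, and the genotypes overlapped in neither measure. Of all genes in the 4 long lists, 36.5% were wider and 26% ranked higher in both knock-in libraries. By median percentile Psmb4 was the lowest of the 11 members in all long lists. Psmb5 (chromosome 14, 54614120 to 54617995), the subunit with chymotrypsin-like activity, had peaks of 1088 and 913 bp in the long knock-in lists, at percentiles 31.3 and 40.8, and none in wild type. Psmb2 was in knock-in 1 and 3 and in both long wild type lists, Psmb3 in replicate 1 of each genotype and Psmb6, the subunit with caspase-like activity, in wild type 1 with a peak at percentile 23.7. Psmb1 and Psmb7 had no peak in any list, and in the long lists the nearest peak lay 28024 bp or more from Psmb1 and 75454 bp or more from Psmb7. Pseudogenes of Psma5, Psmb5, Psmb6 and Psmb7 are annotated elsewhere, so reads from sequence shared with them are uncertain.

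Of the immunoproteasome subunits, Psmb10 had peaks in both genotypes while Psmb8 and Psmb9 were at or near none. Psmb10 (chromosome 8, 105935728 to 105938392, minus strand) had peaks of 1845 and 1157 bp in knock-in 1 and 2 and of 845 and 1433 bp in wild type 1 and 2. Their percentiles were 38.9, 57.9, 16.2 and 39.7, so the genotypes overlapped. The peaks of knock-in 2 and wild type 1 began 322 and 613 bp downstream of the annotated start, and that of wild type 2 also reached the window of Lcat, which encodes a plasma enzyme that esterifies cholesterol. Psmb8 (chromosome 17, 34198195 to 34201454) had a single peak, 758 bp wide in knock-in 1, at percentile 4.49, which also lay in the window of Tap1, the peptide transporter gene beside it. Psmb9 (chromosome 17, 34182030 to 34187330) had no peak in any of the 8 lists. Beside these values, 0 of 12 microglia and immune cell markers had a peak in any library, and fewer cells of a type and less mark per cell cannot be told apart in whole tissue. Psma8 and Psmb11, the core subunits of testis and thymus, had no peak either.

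Regulatory particle genes had peaks more often for the non-ATPases than for the ATPases. In knock-in 1 and 2 and wild type 1 and 2, peaks were listed at 9, 7, 6 and 7 of the 11 non-ATPases and at 4, 3, 1 and 0 of the 6 ATPases. No ATPase was in all 4 long lists, against 4 of the 11 non-ATPases, Psmd1, Psmd3, Psmd7 and Psmd11. The difference between these classes was not tested, since the members were chosen with results known. For the core the counts were 8, 6, 6 and 5 of 14 constitutive subunits, and for the ATPases and non-ATPases together 13, 10, 7 and 7 of 17. Adrm1 and Sem1 also belong to the regulatory particle but have other symbols and are given below.

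Psmd11 (chromosome 11, 80428615 to 80473248), a scaffold subunit of the lid, had peaks of 1278 and 1203 bp in knock-in 1 and 2 and of 763 and 956 bp in wild type 1 and 2, and a peak in knock-in 3. In the long lists its widths were larger in knock-in without overlap, as for 36.5% of all genes in these 4 lists. Its percentiles of 63.9, 71.7, 77.5 and 32.9 overlapped between genotypes. Psmd3, another lid subunit, had 1227, 1755, 1745 and 1078 bp in the same order, and was among the 3 widest of the 11 members in all long lists by median width. Psmd1, the large scaffold of the base, was the narrowest of those 11 by median width, with 850, 876, 596 and 1006 bp. Psmd7 had 827, 1112, 727 and 1325 bp, and for Psmd3, Psmd1 and Psmd7 the genotypes overlapped in width. Psmd14, the deubiquitinase of the lid, had a peak in knock-in 2 only, of 1077 bp at percentile 48.5, and Psmd13 had none in any list. Psmd12 was in knock-in 1 and both long wild type lists, Psmd2 in both long knock-in lists and wild type 1, and Psmd6 in both long knock-in lists and wild type 2. The ubiquitin receptor gene Psmd4 was in knock-in 1 and wild type 2, and Psmd8 in knock-in 1 at percentile 6.44.

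The ATPase genes Psmc4 and Psmc5 had peaks in both long knock-in lists and no wild type list. Psmc4 (chromosome 7, 28041702 to 28050092) had widths of 768 and 1034 bp at percentiles 12.6 and 45.9. Psmc5 (chromosome 11, 106256185 to 106263112) had 830 and 811 bp at percentiles 17.6 and 8.14, and the window of Ftsj3 overlapped a peak of it. Psmc1 was in knock-in 2 and Psmc3 in knock-in 1 alone, and Psmc2 was in replicate 1 of each genotype. The Psmc2 peaks counted lay at different places, -757 to 269 bp from the outer start in knock-in 1 and 994 to 2037 bp in wild type 1. At a start 1472 bp inside Psmc2, knock-in 1 and wild type 1 had peaks of 1054 and 1044 bp. Psmc6 had no peak by the rule, and a peak 1804 to 1865 bp beyond its end was present in all 4 long lists.

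Among the assembly chaperones, which guide subunits into place and leave the finished particle, Psmg1 and Psmg2 had the most peaks. Psmg1 was in all 4 long lists at percentiles 37.96, 60.9, 33.4 and 37.9, and the window of Brwd1 overlapped a peak of it. Peaks of Psmg2 were listed for knock-in 1, 2 and 3 and wild type 1, of 1329, 1175, 152 and 1232 bp, at percentiles 64.4, 81.0, 71.8 and 60.0, and the window of Cep76 overlapped a peak of it. Psmd5, Psmd9, Psmg3 and Psmg4 had a peak in 1 library each, none above percentile 28.7, and Psmd10 had none.

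By median percentile over the 4 long lists, the activator genes Psme4 and Psme3 came next after Psma7 among the 11 members in all of them. Psme4, which encodes the nuclear cap PA200, had peaks of 1457, 1523, 1508 and 1581 bp in knock-in 1 and 2 and wild type 1 and 2, at percentiles 90.0, 78.8, 73.1 and 74.4. Psme3, the nuclear cap PA28 gamma, had 1282, 1172, 1099 and 1411 bp at percentiles 70.0, 70.8, 71.6 and 25.6. The interferon-inducible pair Psme1 and Psme2, which form the cytoplasmic cap, lie close together on chromosome 14 and were found less evenly. Psme1 (55578494 to 55581527) had 925 and 963 bp in the long knock-in lists, at percentiles 14.3 and 43.9, and no peak in wild type. Psme2 (55587440 to 55591101) had 1088 and 1911 bp in knock-in 1 and 2, 105 bp in knock-in 3 and 1257 bp in wild type 1, at percentiles 49.2, 73.9, 25.8 and 14.5. The window of Fitm1 overlapped a peak of Psme1 and that of Rnf31 a peak of Psme2, and the widest Psme2 peaks of knock-in 1 and wild type 1 lay wholly upstream of its start, on the side of Rnf31. Psme2b, a near copy of Psme2, had no peak.

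The inhibitor gene Psmf1 had no peak at its ends. An annotated start 2889 bp inside the gene had peaks of 987 and 1202 bp in knock-in 1 and 2, at percentiles 20.1 and 12.4, and none in wild type. Of the 2 genes that only share the prefix, Psme3ip1 was in both long knock-in lists at percentiles 30.7 and 59.1 and in no wild type list, with a peak that also reached Rspry1, and Psmc3ip was in wild type 2 with a peak that also reached Retreg3. In all, 14 of the 39 members with a peak shared one with the window of another gene, the others being Psmb3 with Pcgf2, Psmc2 with Dnajc2 and Psmd8 with Catsperg1.

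Where the direction of transcription was known, every member's peak in the long lists overlapped the 1 kb on either side of the outer start of the gene. This held for 79 of 79 pairs of a gene and a long list, against 95.3% of such pairs for all genes. Such a peak need not cover the start, and that of Psmc2 in wild type 1 lay 994 to 2037 bp downstream of it. The median edges of member peaks were at -248 and 746 bp from the outer start, and those of all genes at -320 and 942 bp. Among pairs whose peak overlapped that window around the start, 79 for members and 22625 for all genes, the centre was downstream of the start in 81.0% and 84.4%. List by list, member peaks reached less far downstream in all 4, and less far upstream in 3, the exception being wild type 2 with -274 bp for members and -238 bp for all genes.

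**Figure D3:**
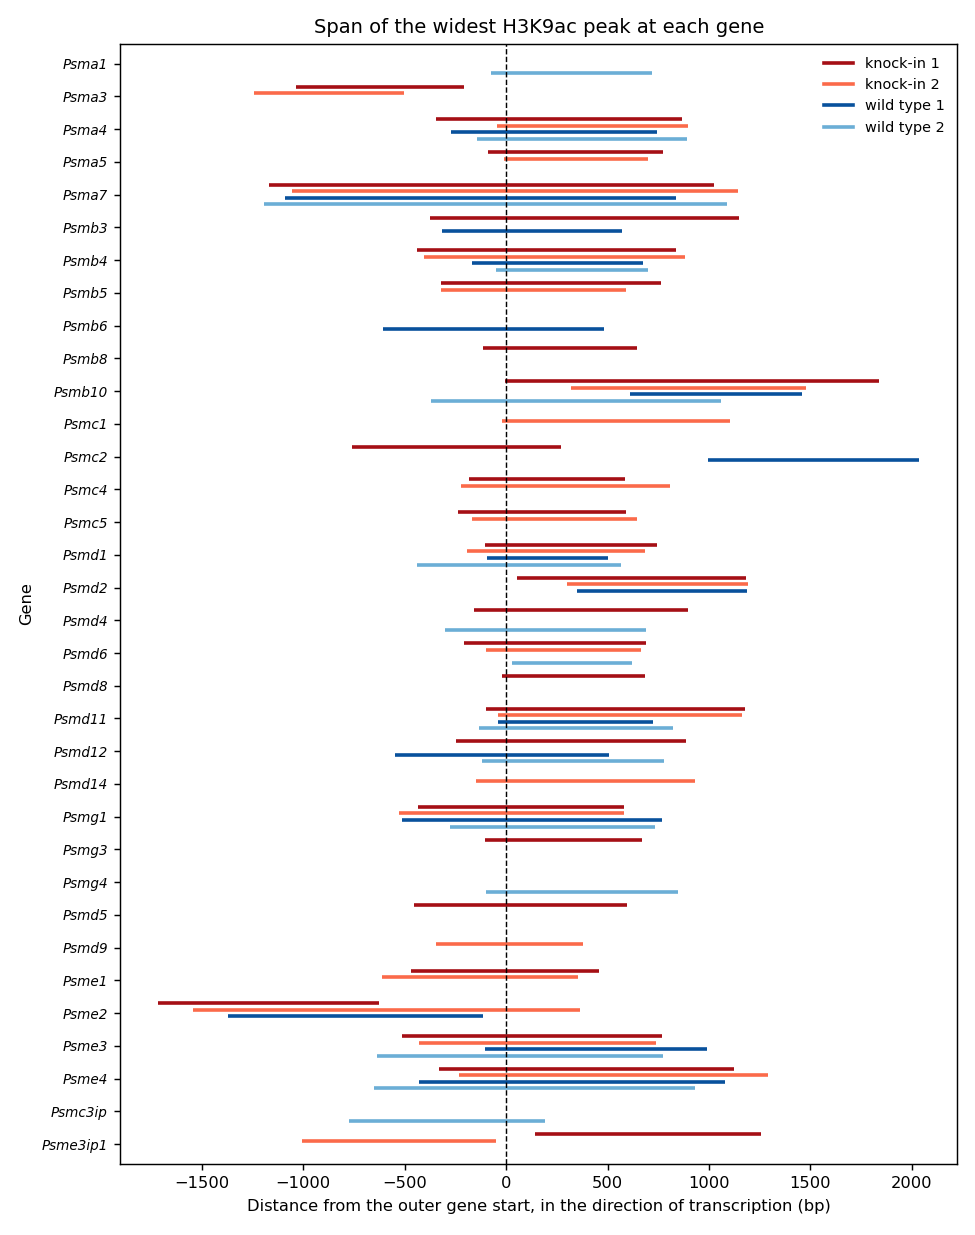
Span of the widest peak at each member with a known direction of transcription in the 4 long lists, as distance in bp from the outer start of the gene (x axis, dashed line at 0). Most bars cross the start and reach further downstream, Psma7 reaches equally to both sides, and the bars of Psma3 lie upstream of the outermost annotated end.

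No proteasome gene passed the test for a difference between genotypes. A two-sided conditional exact test held fixed how many libraries had a peak at a gene and used odds of detection per library fitted over all genes, with Benjamini-Hochberg adjustment over 9826 genes. It called 0 of the 39 members tested, 0% of all genes being called, and no member had an unadjusted p under 0.05, against 0.916% of all genes. Fisher's exact test, which takes no account of list length, called 0 members and 0 genes, and no gene had an unadjusted p under 0.05 with it. The smallest p among members was 0.0533, for Psme2 and for Psmg2, each in 3 knock-in libraries and 1 wild type library, and both had an adjusted conditional exact p of 1.00. With windows of 500 bp both had a conditional exact p of 0.0385, and leaving out wild type 1 or wild type 3 gave 0.0437 and 0.0481. With the start site only Psme2 had 0.0493, and the adjusted p was 1.00 in each of these settings. The 7 members in 2 knock-in and 0 wild type libraries each had a conditional exact p of 0.501. For a gene found only in the long lists, that is the greatest separation towards knock-in. The test therefore could not call such a gene as higher in knock-in, whatever the mark. A p above the threshold does not show that the genotypes are alike, and the labels do not say whether replicates are separate animals.

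Members leaned towards knock-in in the number of libraries, as did genes overall. Of the 51, 20 (39.2%) were in more knock-in libraries, against 21.6% of all genes. In more wild type libraries there were 6 (11.8%, against 5.23% of all genes), and 13 were in equal numbers above 0 (25.5%, against 18.2%). A difference of 2 or more libraries towards knock-in was seen for 9 members (17.6%, against 3.95% of all genes and 13.5% of ribosomal protein genes). Of those with a peak, this was 9 of 39 members and 865 of 9851 genes. Towards wild type such a difference was seen for 0 members, against 0.302% of all genes and 2.25% of ribosomal protein genes. For RNA polymerase subunit genes the share was 3.57% in each direction. The 9 were Psma3, Psma5, Psmb5, Psmc4, Psmc5, Psme1, Psme3ip1, Psme2 and Psmg2. Knock-in libraries had on average 15.5 ± 15.4 members with a peak (SD, n = 4) and wild type libraries 9.75 ± 10.1 (SD, n = 4), so over all libraries the difference was smaller than the spread, which mixes long and short lists. Within the long lists it was 28.5 ± 4.95 and 18.5 ± 0.71 (SD, n = 2), a difference larger than that spread, which was not tested. As mean shares of the long lists these were 55.9% and 36.3% of members, beside 37.7% and 29.8% of all genes. The long knock-in lists thus held more genes of every kind, and the member counts are not a result about the members alone. No replicate number had fewer members in knock-in, the counts being 32 and 19, 25 and 18, 5 and 2, and 0 and 0. The share of all genes was also larger in knock-in for replicates 1, 2 and 3, and smaller for replicate 4 (0.896% and 1.46%). The counts of 20 and 6 lean on single libraries. As shares of the libraries kept, members higher in knock-in numbered 31, 33, 32 and 31 without knock-in 3, knock-in 4, wild type 1 and wild type 2, and members higher in wild type numbered 19, 15, 18 and 19 without knock-in 1, knock-in 2, wild type 3 and wild type 4. Leaving out 1 library turns equal numbers into unequal shares, which by itself moves these counts.

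Members in both long knock-in lists and neither long wild type list lay in the lower ranges of score. Of 22 members in both long knock-in lists, 7 (31.8%) had no peak in a long wild type list, against 10.4% of all such genes. Of 13 members in both long wild type lists, 0 lacked a peak in the long knock-in lists (0.732% of all genes). The share depended on score. By mean percentile in the 2 knock-in lists, the 7 were 3 of 3 members from 0 to 25 (Psma3, Psma5 and Psmc5; 53% of all genes), 4 of 10 from 25 to 50 (Psmb5, Psmc4, Psme1 and Psme3ip1; 20.9%), 0 of 7 from 50 to 75 (3.07%) and 0 of 2 from 75 to 100 (0.487%). Thus 13 of the 22 members were in the lower 2 ranges, where most genes absent from wild type were found. Psma3 counts among the 7 by its outer ends only, since its internal start had peaks in both genotypes. Settings that drop low-scoring peaks remove such genes by construction, and gave a count of 1 with peaks at or above each list's median score and 0 with lists of equal length. Widths in the 11 members in all long lists were larger in both knock-in than in both wild type libraries for 2, Psmb4 and Psmd11, against 36.5% of all such genes, and the reverse for 0, against 4.19%. Score percentiles were higher in both knock-in libraries for 4, Psmb4, Psmd1, Psme4 and Psmg1 (26% of all such genes), and in both wild type libraries for 0 (7.37%). Ranks from lists of different length cannot show whether the mark itself changed.

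**Figure D4:**
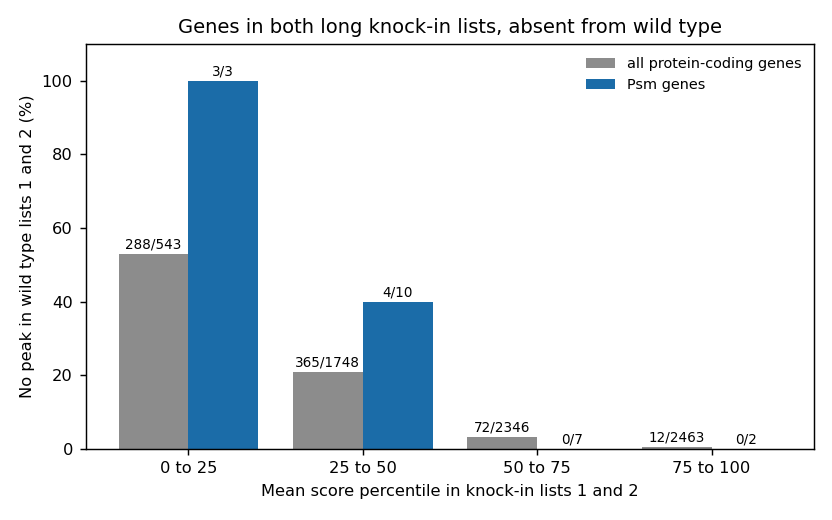
Percentage of genes in both long knock-in lists that had no peak in either long wild type list (y axis), by mean score percentile in the 2 knock-in lists (x axis), for all protein-coding genes (grey) and proteasome genes (blue), with counts above the bars. The share falls from 53% to 0.487% for all genes, and the 7 members absent from wild type all lie below 50.

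Other genes act with the proteasome or, like Adrm1 and Sem1, belong to it under other symbols. Their share with a peak in at least 1 library was like that of the Psm genes, and more of them were in all 4 long lists. Of 39 such genes listed, 38 matched a protein-coding gene, and 27, 28, 12 and 1 carried one in knock-in 1 to 4, with 26, 22, 7 and 5 in wild type 1 to 4. All 4 long lists held 22 of the 38 (57.9%), against 21.6% of the Psm genes, a difference that was not tested, while 29 of the 38 (76.3%) were in at least 1 library, against 76.5% of the Psm genes. These included the ubiquitin receptor gene Adrm1, the lid subunit gene Sem1, the core assembly factor gene Pomp and Nfe2l1, which encodes the transcription factor that induces proteasome genes when the proteasome is impaired. None of the 38 was called between genotypes with the conditional exact test, and 1 had an unadjusted p under 0.05. That gene was Ube3a, a ubiquitin ligase found in 2 knock-in and 4 wild type libraries (conditional exact p = 0.0283, adjusted p = 1.00). Its peaks were 1588 and 1424 bp wide in knock-in 1 and 2 and 1156, 1680, 155 and 118 bp in wild type 1 to 4. Zfand5, which encodes a zinc finger protein that stimulates the proteasome, had a peak in all 8 libraries, from 95 bp in knock-in 4 to 2952 bp in wild type 1. Nploc4, a cofactor of the segregase Vcp, had peaks in 7 libraries, 3 of them knock-in. Irf1, an interferon response factor that acts on the immunoproteasome genes, was in both long knock-in lists at percentiles 24.4 and 22.8 and in no wild type list.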

How the data were processed

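Peak lists of 8 H3K9ac libraries of mouse cerebellum were used as deposited. The submitters' processing notes name Bowtie2 and mm10, and the file headers name MACS in Galaxy, with 1 list per library. Its version, settings and input control were not stated in these sources. The deposited score of each peak is the authors' value, of unstated scale and at least 50.0 in every list, and it served only to rank peaks within a list. Starts below 0 (15 of 52676 peaks) were moved to 0. Depth is unknown.

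Gene ends came from RefSeq GRCm38.p6, and starts and strands from its promoter table, which held 43 of the 51 members. An overlap of 1 bp counted. Detection, tests (odds by a Rasch model, threshold 0.05, genes in 1 to 7 libraries) and alternatives were computed in Python 3.11.15 with numpy 2.4.6, pandas 2.3.3 and scipy 1.17.1. The test was checked on simulated data. The spread that p-values measure is that of these libraries and may be technical. The members and lists were chosen with earlier results of these data known. Widths, score percentiles or both are given in every library with a peak for 3 kinds of member. These are the immunoproteasome genes, members differing by 2 or more libraries, and the extremes of width and rank among members in all long lists. Other genes were named, and the score ranges chosen, after the values were seen.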

Additional observations from a re-analysis of the deposited data

How the results depend on the processing

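Windows of 500 bp or 3 kb, the start site only, 50 bp of overlap, all start sites of the promoter table and omission of Psmc3ip and Psme3ip1 (the last pair of settings added after the data were seen) kept every count within 1.5 times and reversed no named gene. Members and pathway genes called were 0 under each setting, which says nothing of stability for Fisher's test or for 2 against 2 libraries, where a call could not be reached. Nor could the conditional exact test with all libraries call a gene found only in the long lists as higher in knock-in. Using peaks at or above each list's median score, members with a peak fell from 39 to 16, those in more knock-in libraries to 13, those in more wild type libraries to 1 and those in both long knock-in and no long wild type list from 7 to 1. The median width then was 1227 bp instead of 1053.5 bp. The median percentile was 28.8, ranked anew among the peaks kept, so it cannot be compared with the 40.3 of the full lists. With lists of equal length these values were 3, 1, 1, 0, 2198 bp and 77.7, the percentile again among the peaks kept. Within replicates 3 and 4 there were 6, 4 and 1. Fewer peaks are used by construction in each. Leaving out 1 library gave 15 to 33 members in more knock-in libraries and 5 to 19 in more wild type libraries. With the replicate number as a block, members called stayed at 0. Deviations of same-numbered libraries correlated at 0.0502 to 0.405, not above 0.1 for every pair, so the numbers were not taken as pairing; 4 pairs were compared, and not every library correlated best with its own number. Without read depth, a peak below the caller's minimum cannot be told from none.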
